A study of Homo sapiens with 4 samples.

Results

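The human mitochondrial chromosome carries 37 genes, and their transcripts were followed in Ishikawa cells after knockdown of *CDYL*. The members were all genes whose symbol starts with MT-, matched by Ensembl identifier to the deposited table of 58522 genes, and all 37 were found. They comprise 13 mRNAs, 2 rRNAs and 22 tRNAs. Ishikawa is an established human endometrial adenocarcinoma line, and the labels give its cells as endometrial epithelial. The *CDYL*-sh group consisted of 2 libraries of cells that received a short hairpin RNA (shRNA) against *CDYL*, which encodes a chromodomain corepressor of transcription found in the nucleus. The control group consisted of 2 libraries of cells given the negative control shRNA. Per the methods, the shRNA plasmid also carries ZsGreen and a puromycin resistance gene, and the cells were selected with puromycin. The *CDYL*-sh libraries 1 and 2 are titled Ishikawa_CDYL_sh1 and Ishikawa_CDYL_sh2. The supplement names hairpins CDYL-sh1, CDYL-sh2 and CDYL-sh3, and the sources used here do not state whether the titles name hairpins or replicates. Nor do they state whether libraries of 1 group are separate cultures. The p-values therefore measure the spread between these libraries only, which may be technical or, in *CDYL*-sh, between hairpins. The comparison asks whether RNA of the mitochondrial genome was present at another level, or in other proportions, when *CDYL* was knocked down.

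Mitochondrial DNA is copied into long RNAs that run over many genes on either strand. Most mRNAs and rRNAs in these precursors are flanked by tRNAs, and cutting the tRNAs out at both of their ends also releases the RNAs between them. The mRNAs encode core subunits of respiratory complexes I, III and IV and of the ATP synthase (complex V), the rRNAs build the mitochondrial ribosome and the tRNAs serve its translation. All other subunits and all proteins that copy, transcribe and process mitochondrial DNA come from nuclear genes. RNA amounts of the mitochondrial mRNAs can differ although they share precursors, since each mature RNA has its own turnover.

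On GRCh38 the members lie on chromosome M, 28 on the plus strand and 9 on the minus strand. The minus strand holds *MT-ND6*, the only mRNA there, and 8 tRNAs. Read along the plus strand, the rRNA genes *MT-RNR1* (648 to 1601) and *MT-RNR2* (1671 to 3229) come first. They are followed by the mRNA genes *MT-ND1* (3307 to 4262), *MT-ND2* (4470 to 5511), *MT-CO1* (5904 to 7445) and *MT-CO2* (7586 to 8269), then by *MT-ATP8* (8366 to 8572), *MT-ATP6* (8527 to 9207), *MT-CO3* (9207 to 9990) and *MT-ND3* (10059 to 10404), and then by *MT-ND4L* (10470 to 10766), *MT-ND4* (10760 to 12137), *MT-ND5* (12337 to 14148) and *MT-CYB* (14747 to 15887). The genes are packed closely, and 5 pairs share bases. The mRNAs of *MT-ATP8* and *MT-ATP6* overlap by 46 bases and those of *MT-ND4L* and *MT-ND4* by 7, and each of these pairs is known as 1 bicistronic mRNA. Both overlaps are shown because reads from them could be given to either gene, and capitals mark the shared bases on the plus strand.
MT-ATP8 and MT-ATP6, chrM:8507-8592: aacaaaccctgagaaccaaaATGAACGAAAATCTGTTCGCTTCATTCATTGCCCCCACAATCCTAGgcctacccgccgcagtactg
MT-ND4L and MT-ND4, chrM:10740-10786: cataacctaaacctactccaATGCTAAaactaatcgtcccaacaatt

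In both windows the capitals open with ATG, the start codon of the downstream gene, and they run to the stop codon of the upstream gene. The annotated genes also differ in their last bases, which need not be the ends of the mRNAs. Several mitochondrial genes end in the first base or bases of a stop codon, which polyadenylation of the RNA is known to complete. The last 30 bases are shown for the 4 mRNAs whose decrease held in each fit without 1 library, *MT-ND1*, *MT-ND2*, *MT-ND4L* and *MT-ND5*, and for the 3 whose groups overlapped, *MT-CO2*, *MT-CO3* and *MT-ND3*. The bases are those of the annotated genes, and capitals mark the codon, or the part of one, that ends the gene.
MT-ND1, chrM:4233-4262: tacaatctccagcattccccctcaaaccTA
MT-ND2, chrM:5482-5511: ctatctccccttttatactaataatcttaT
MT-ND4L, chrM:10737-10766: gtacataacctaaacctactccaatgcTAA
MT-ND5, chrM:14119-14148: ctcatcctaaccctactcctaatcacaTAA
MT-CO2, chrM:8240-8269: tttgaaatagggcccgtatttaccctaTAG
MT-CO3, chrM:9961-9990: tgtatgtctccatctattgatgagggtctT
MT-ND3, chrM:10375-10404: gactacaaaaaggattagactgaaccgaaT

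Whole and partial stop codons occurred in both sets. The *MT-ND5* gene ends at base 14148, and the *MT-ND6* gene, read in the other direction, covers 14149 to 14673, so that the 3′ ends of these genes meet.

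Total counts were 27451007 and 22341852 in the *CDYL*-sh libraries and 27688447 and 26981051 in the control libraries. Between 21323 and 22007 genes had a count, and 16158 genes passed the filter on low counts and were tested. *CDYL* had 11.4 and 9.70 CPM (counts per 1000000 of the TMM-scaled library size) in *CDYL*-sh and 50.4 and 53.0 CPM in control, with a log2 fold change of -2.28 (SE 0.13, edgeR adjusted p = 4.26e-09). The 10 epithelial markers summed to 3447 and 3711 CPM in *CDYL*-sh and 3503 and 3920 CPM in control. Of the 9 tested, *KRT19*, *CLDN4*, *CLDN3* and *KRT7* rose and *KRT18* fell, and *ESR1* had a mean of 0.22 CPM in both groups and was not tested. The 7 leukocyte markers summed to 21.4 and 18.5 CPM in *CDYL*-sh against 8.40 and 12.4 CPM in control, with *CD3E* at 0 in every library and 6 of the 7 under 1 CPM, so that *CD68* made up most of the sum (19.4 CPM on average in *CDYL*-sh and 9.68 CPM in control). The 5 endothelial markers reached 8.28 and 9.06 CPM in *CDYL*-sh and 4.24 and 4.79 CPM in control. *PECAM1* alone rose, to 5.78 CPM on average in *CDYL*-sh against 1.79 CPM in control, while *CDH5* averaged 0.284 CPM in *CDYL*-sh and 0.738 CPM in control and did not pass. The 8 stromal markers reached 17.96 and 16.0 CPM in *CDYL*-sh and 23.8 and 26.1 CPM in control, with *COL3A1* and *DCN* at 0. The part of these genes in the results was not tested.

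Less of the *CDYL*-sh libraries came from the mitochondrial chromosome. The 37 genes took 2.78% and 2.43% of all counts in *CDYL*-sh and 3.40% and 3.24% in control. The groups did not overlap. The mean share was 2.60% ± 0.25 in *CDYL*-sh and 3.32% ± 0.11 in control (SD, n = 2 each), a difference of -0.716 percentage points. An exact permutation test of 2 libraries against 2 cannot give a p under 0.333, so none is printed, and no other test was run on this share. The mRNAs held most of it, with 2.44% of counts in *CDYL*-sh and 3.13% in control, against 0.168% in *CDYL*-sh and 0.186% in control for the rRNAs. In bulk RNA, fewer cells of a kind and less RNA per cell cannot be told apart.

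**Figure D1:**
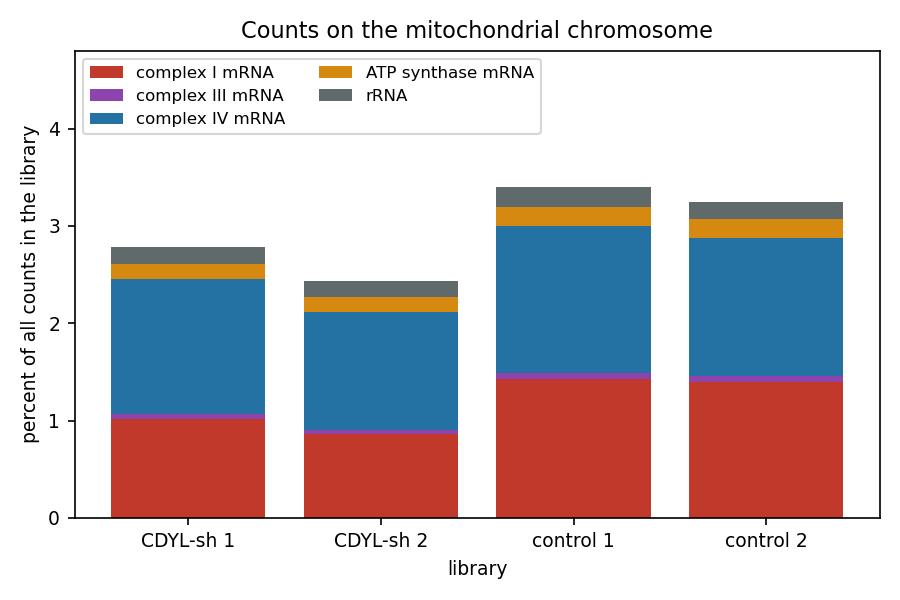
Percent of all counts in each library (y axis) that fell on mitochondrial mRNAs of each respiratory complex and on the rRNAs, stacked, with 1 bar per library. The bars reach 2.78% and 2.43% in *CDYL*-sh and 3.40% and 3.24% in control, and the complex I part is the one that differs most between the groups.

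Of the members, 15 passed the filter on low counts, namely the 13 mRNAs and both rRNAs. None passed the edgeR test upward in *CDYL*-sh, where 13.6% of all genes tested did, and 9 passed downward, where 12.1% of all genes did. At an unadjusted p under 0.05 the counts were 0 upward and 11 downward, and each other tool run, DESeq2 and limma-voom included, also called 0 upward. Downward, 11 members passed with DESeq2 and with limma-voom, 2 with limma on log2 FPKM, and 5 without control library 1 or without *CDYL*-sh library 2. The 13.6% and 12.1% belong to the main edgeR test at an adjusted p under 0.05, and no such shares are given for these other counts. For 12 members both *CDYL*-sh libraries lay below both control libraries, as for 31.8% of all genes tested, and for 0 members above, as for 32.5%. The median log2 fold change of the mRNAs was -0.37, beside 0.01 for all genes tested. These 15 genes share precursors and are not independent of each other.

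**Figure D2:**
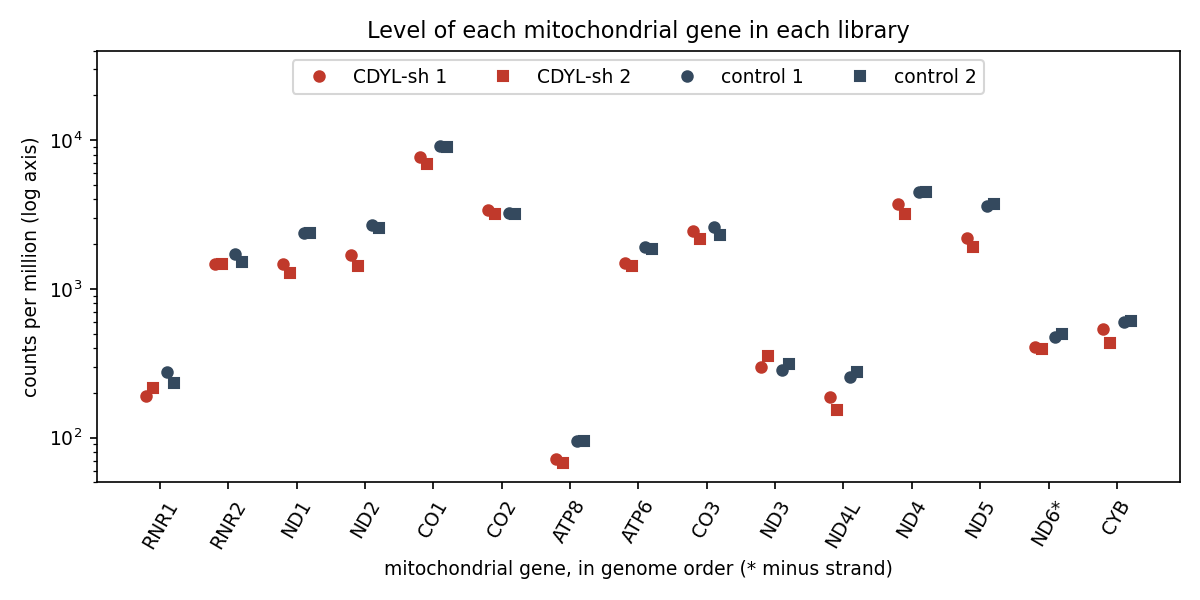
CPM (log axis) of the 15 mitochondrial genes tested, in genome order, with 1 point for each of the 4 libraries and *CDYL*-sh to the left of control. The groups stand clear of each other for *MT-ND1*, *MT-ND2* and *MT-ND5* and overlap for *MT-CO2*, *MT-CO3* and *MT-ND3*.

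Complex I takes electrons from NADH into the respiratory chain, and its 7 mitochondrial subunits sit in the membrane arm, which pumps protons. Of their mRNAs 6 fell in *CDYL*-sh and *MT-ND3* did not pass the test, with a median log2 fold change of -0.65. *MT-ND5*, which lies at the far end of that arm, had 2195 and 1912 CPM in *CDYL*-sh against 3622 and 3722 CPM in control. It stood at 55.9% of the control mean, the lowest share among the 15 genes tested. Its log2 fold change was -0.84 (SE 0.12, edgeR adjusted p = 7.96e-05). The length the authors' software used for *MT-ND5* exceeded the annotated gene, as described below with the FPKM, so its count may include fragments from outside it. *MT-ND1*, the subunit at the foot of the arm near the ubiquinone site, had 1463 and 1277 CPM in *CDYL*-sh against 2374 and 2379 CPM in control. The control libraries were almost equal and neither *CDYL*-sh library came near them, and the log2 fold change was -0.79 (SE 0.12, edgeR adjusted p = 0.000104).

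*MT-ND2*, another proton-pumping subunit, had 1681 and 1424 CPM in *CDYL*-sh against 2693 and 2564 CPM in control, or 59.1% of control (log2 fold change -0.76, SE 0.12, edgeR adjusted p = 0.000207). *MT-ND4L*, a small membrane subunit, had 188 and 152 CPM in *CDYL*-sh against 257 and 278 CPM in control. Both *CDYL*-sh libraries were lower, at 63.6% of control (log2 fold change -0.65, SE 0.11, edgeR adjusted p = 0.000488). The decreases of *MT-ND1*, *MT-ND2*, *MT-ND4L* and *MT-ND5* held in each fit that left out 1 library, and those of *MT-ND1* and *MT-ND5* in all 18 alternative fits. *MT-ND2* and *MT-ND4L* missed the threshold only with limma on log2 FPKM. For *MT-ND5* the length behind the FPKM was greater in *CDYL*-sh, which by itself lowers its FPKM there, so the fits on FPKM add no support for its decrease.

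*MT-ND4*, which shares its mRNA with *MT-ND4L*, also fell. It had 3699 and 3200 CPM in *CDYL*-sh against 4507 and 4451 CPM in control, with a log2 fold change of -0.38 (SE 0.12, edgeR adjusted p = 0.0288). The call was lost without control library 1 (adjusted p = 0.125), without control library 2 (0.0954) or without *CDYL*-sh library 2 (0.281). There were 0.0492 counts of *MT-ND4L* per count of *MT-ND4* in *CDYL*-sh and 0.0597 in control, with no overlap between the groups. Both genes are read from the same bicistronic mRNA, and reads over its 7 shared bases could be given to either. Count divided by FPKM implies a length used of 31.8 to 33.0 bases for *MT-ND4L* and of 1069 to 1072 bases for *MT-ND4*. Few fragments therefore fit within *MT-ND4L*, so its count and the ratio may depend on the fragment size of each library. This was not tested.

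*MT-ND6* is the complex I subunit encoded on the minus strand. It had 403.8 and 392.4 CPM in *CDYL*-sh and 476 and 497 CPM in control, and its edgeR adjusted p of 0.049997 lay at the threshold (log2 fold change -0.29, SE 0.10). Leaving out any 1 library ended the call, with adjusted p-values between 0.113 and 0.243. *MT-ND3*, a small subunit next to the ubiquinone site, had 299 and 355 CPM in *CDYL*-sh and 286 and 312 CPM in control. Its groups overlapped, and the log2 fold change was 0.13 (SE 0.11, edgeR adjusted p = 0.428), or -0.17 when offsets for gene length and GC content were added.

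**Figure D3:**
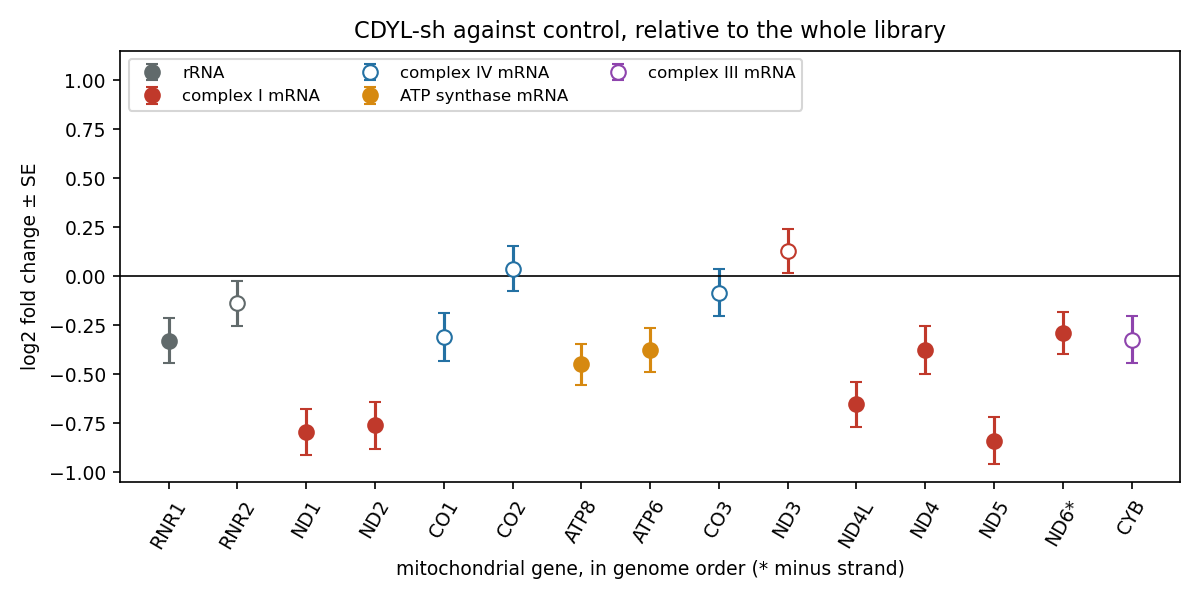
Log2 fold change of *CDYL*-sh against control from edgeR (y axis, with its standard error as bars) for the 15 mitochondrial genes tested, in genome order and coloured by complex. Filled points passed at an adjusted p under 0.05, and the 6 filled complex I genes lie between -0.84 and -0.29.

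Complex III passes electrons from ubiquinol to cytochrome c, and cytochrome b, encoded by *MT-CYB*, is its only mitochondrial subunit. *MT-CYB* had 538 and 431 CPM in *CDYL*-sh and 601 and 611 CPM in control. Both *CDYL*-sh libraries were lower but also well apart from each other, and the log2 fold change of -0.32 (SE 0.12) missed the threshold (edgeR adjusted p = 0.0522). It passed with DESeq2 (adjusted p = 0.0300) and with limma-voom (0.0355). The log2 fold change was -0.17 without *CDYL*-sh library 2 (adjusted p = 0.523) and -0.51 without *CDYL*-sh library 1 (0.00889), so that its size rested on which of these libraries was used.

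Complex IV, cytochrome c oxidase, reduces oxygen to water, and its catalytic core is made of the products of *MT-CO1*, *MT-CO2* and *MT-CO3*. None of these 3 mRNAs passed the edgeR test, and their median log2 fold change was -0.08. At an unadjusted p under 0.05, and with DESeq2 or limma-voom, 1 passed downward and 0 upward. *MT-CO1*, which carries the site where oxygen is reduced, had more counts than any other member, with 7689 and 6911 CPM in *CDYL*-sh and 9137 and 8948 CPM in control (log2 fold change -0.31, SE 0.12, edgeR adjusted p = 0.0716). Its groups did not overlap. *MT-CO2*, which receives electrons from cytochrome c, had 3402 and 3213 CPM in *CDYL*-sh and 3227 and 3210 CPM in control. *CDYL*-sh library 2 lay between the control libraries, and the log2 fold change was 0.04 (SE 0.12, edgeR adjusted p = 0.834). It was -0.07 when offsets for gene length and GC content were added, so no direction can be given. *MT-CO3* had 2448 and 2165 CPM in *CDYL*-sh and 2598 and 2290 CPM in control, with overlapping groups and a log2 fold change of -0.08 (SE 0.12, edgeR adjusted p = 0.653).

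Complex V makes ATP with the proton gradient, and its mitochondrial subunits are *MT-ATP6*, part of the proton channel, and *MT-ATP8*, a small subunit beside it. Both fell in *CDYL*-sh. *MT-ATP6* had 1494 and 1427 CPM in *CDYL*-sh and 1922 and 1862 CPM in control (log2 fold change -0.37, SE 0.11, edgeR adjusted p = 0.0204). Its call was lost in each fit without 1 library, with adjusted p-values from 0.0532 to 0.137. *MT-ATP8* had 72.1 and 67.3 CPM in *CDYL*-sh and 94.9 and 95.5 CPM in control, the fewest counts of the mRNAs (log2 fold change -0.45, SE 0.10, edgeR adjusted p = 0.00420). Without *CDYL*-sh library 2 its adjusted p was 0.0558. For this pair, which shares the 46 capitals shown above, there were 0.0477 counts of *MT-ATP8* per count of *MT-ATP6* in *CDYL*-sh and 0.0503 in control, with no overlap between the groups. Few fragments fit within *MT-ATP8*, as for *MT-ND4L*, so this ratio may also depend on fragment size, which was not tested.

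The rRNAs form the small (*MT-RNR1*) and the large (*MT-RNR2*) subunit of the mitochondrial ribosome. *MT-RNR1* had 189 and 215 CPM in *CDYL*-sh and 276 and 231 CPM in control, with a log2 fold change of -0.33 (SE 0.11, edgeR adjusted p = 0.0411). The call was lost without control library 1 (adjusted p = 0.343) or without *CDYL*-sh library 1 (0.220). *MT-RNR2* had 1476 and 1463 CPM in *CDYL*-sh and 1721 and 1514 CPM in control, and did not pass (log2 fold change -0.14, SE 0.12, edgeR adjusted p = 0.407). It passed downward when offsets for gene length and GC content were added (-0.31, adjusted p = 0.0170), and had -0.05 without control library 1 and -0.23 without control library 2. Whether the libraries were made after poly(A) selection or rRNA depletion is not given in the sources used here, and either would set how much of the rRNAs was counted.

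The 22 tRNAs, the spacers of the precursors, could not be compared. They are 59 to 75 bases long, none passed the filter on low counts, and 18 had no count in any library. All 22 had an FPKM (fragments scaled for gene length and library depth) of 0. The summed counts were 3 and 1 in *CDYL*-sh and 2.98 and 6 in control. The 4 tRNAs with any count are all on the minus strand. *MT-TA*, the alanine tRNA, was the only one with counts in every library, at 3 and 1 in *CDYL*-sh and 2 and 2 in control. *MT-TC* and *MT-TY* had 3 and 1 counts, all in control library 2, and *MT-TS1* had 0.98, in control library 1. The gene of *MT-TA* is shown as that of the only tRNA with counts in every library, read on the minus strand and with no capitals.
MT-TA, chrM:5587-5655: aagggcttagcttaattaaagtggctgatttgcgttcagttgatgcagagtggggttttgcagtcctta

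For a gene with a count of 0, the depth allows up to 3 counts, or 0.109 and 0.134 CPM in the *CDYL*-sh libraries and 0.108 and 0.111 CPM in the control libraries, which covers counting error only. These tRNAs are shorter than the sequenced fragments, so their counts say little about their abundance.

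Proportions among the members were compared next. Complex I mRNAs made up 38.4% ± 0.58 of the mitochondrial mRNA counts in *CDYL*-sh and 45.1% ± 0.56 in control (SD, n = 2 each). Complex IV mRNAs made up 53.3% ± 0.47 in *CDYL*-sh and 46.7% ± 0.55 in control. These shares are parts of the same total, so the larger complex IV share and the smaller complex I share are not separate results. The groups did not overlap for either complex, whereas they did for complex III, at 1.99% in *CDYL*-sh and 1.92% in control, and for complex V, at 6.32% in *CDYL*-sh and 6.31% in control. The following pairs were chosen after their values were seen, and other pairs differ. For each count of *MT-CO2* there were 0.414 counts of *MT-ND1* in *CDYL*-sh and 0.738 in control. For *MT-ND2* the ratio to *MT-CO2* was 0.469 in *CDYL*-sh and 0.817 in control. *MT-ND3*, also of complex I, had a larger log2 fold change than *MT-CO2*, as described next. No test was run on these shares and ratios, as for the share of all counts.

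A second edgeR fit took the summed counts of the 12 plus-strand mRNAs as the library size, so that each fold change is relative to those mRNAs. On this scale the median of all genes tested moved to 0.39, and 40.2% of them passed upward and 2.28% downward, so that calls on it are read for the members only. Of the 15 members, 2 passed upward and 3 downward. *MT-ND5* (-0.46, SE 0.13, edgeR adjusted p = 0.0157), *MT-ND1* (-0.42, SE 0.13, adjusted p = 0.0229) and *MT-ND2* (-0.38, SE 0.13, adjusted p = 0.0350) were lower in *CDYL*-sh relative to the plus-strand mRNAs. *MT-ND3* (0.52, SE 0.15, edgeR adjusted p = 0.0151) and *MT-CO2* (0.42, SE 0.14, adjusted p = 0.0244) were higher on this scale, though neither was called relative to the whole library. Each plus-strand mRNA is itself part of this scale. Because the scale fell relative to the library, genes at an unchanged level move upward on it, as the median of all genes did. These 2 upward calls therefore do not show a rise relative to the whole library.

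Several of these calls depended on single libraries or on the genes that set the scale. Of 9 alternatives, *MT-ND3* passed in 7, *MT-ND5* and *MT-CO2* in 5, and *MT-ND1* and *MT-ND2* in 4. Each of the fits without 1 library ended the calls of *MT-ND1*, *MT-ND2* and *MT-CO2*. The call of *MT-ND5* was lost without control library 1 or 2 or *CDYL*-sh library 2, and that of *MT-ND3* without control library 1 or *CDYL*-sh library 2. When only the 6 plus-strand complex I mRNAs set the scale, the calls of *MT-ND5* (-0.22, adjusted p = 0.212), *MT-ND1* (-0.17, 0.314) and *MT-ND2* (-0.14, 0.423) were also lost. On that scale *MT-CO3* (0.54, adjusted p = 0.00461) and *MT-RNR2* (0.49, 0.00915) passed upward, and *MT-ND3* and *MT-CO2* still did. Genes at an unchanged level move further upward on it, and the share of all genes called there is not given. These upward calls therefore do not show a rise relative to the whole library. Neighbours along the chromosome could differ. With all 12 plus-strand mRNAs as the scale, *MT-ND3* and *MT-ND4L*, which lie next to each other among the mRNAs, had log2 fold changes of 0.52 and -0.28. *MT-CO1*, the next mRNA after *MT-ND2*, had 0.07 on the scale of the 12.

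**Figure D4:**
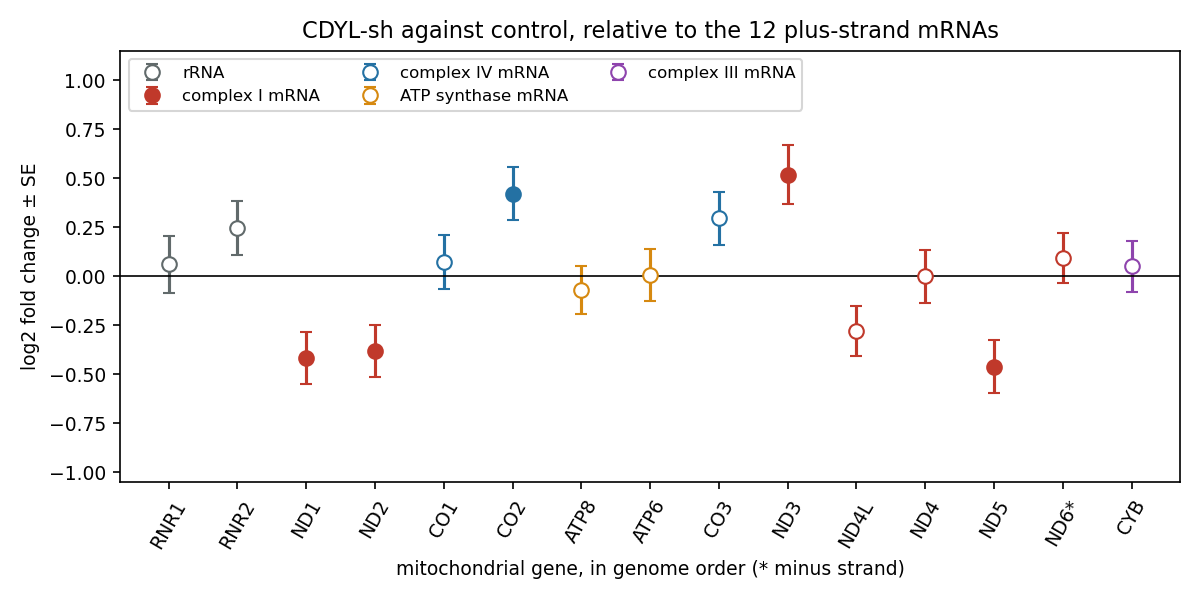
Log2 fold change of *CDYL*-sh against control (y axis, with its standard error as bars) when the 12 plus-strand mitochondrial mRNAs set the library size, in the same order and colours as the plot on the whole-library scale. *MT-ND5*, *MT-ND1* and *MT-ND2* are filled below 0, and *MT-ND3* and *MT-CO2* are filled above 0.

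Among the mRNAs, the minus strand is represented by *MT-ND6* alone. Whether poly(A) selection or rRNA depletion was used is not given, and this could also set how much of *MT-ND6* was counted relative to the other mRNAs. There were 16.7 ± 0.97 counts of *MT-ND6* per 1000 plus-strand mRNA counts in *CDYL*-sh and 15.7 ± 0.70 in control (SD, n = 2 each), and the groups overlapped. The scaled log2 fold change of *MT-ND6* was 0.09 (SE 0.13, edgeR adjusted p = 0.585). A difference of *MT-ND6* from the plus-strand mRNAs was therefore not detectable with these libraries, and the strands as such were not compared. Relative to the 6 plus-strand complex I mRNAs alone it was 0.34 (edgeR adjusted p = 0.0496), on a scale where genes at an unchanged level also move upward. The methods mention an orientation mode in the alignment but do not say whether counting used strand, and without strand, RNA read through from the other strand cannot be told apart.

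Levels of different genes can be compared only per length, and the deposited FPKM allowed this for 10 members. The places of the 2 rRNAs among the mRNAs also depend on poly(A) selection or rRNA depletion, which is not given, so these are not comparable levels. Dividing the count by the FPKM gives the length the authors' software used. For the longer mRNAs other than *MT-ND5*, and for both rRNAs, 10 genes in all, it was shorter than the annotated length by 302.9 to 308.6 bases. In *CDYL*-sh the order by FPKM was *MT-CO2* (8749 ± 560), *MT-CO1* (5927 ± 583), *MT-CO3* (4832 ± 532), *MT-ATP6* (3893 ± 219) and *MT-ND4* (3238 ± 405), given as mean and SD with n = 2. *MT-ND2* (2116 ± 297), *MT-ND1* (2113 ± 252), *MT-RNR2* (1176 ± 34.6), *MT-CYB* (583 ± 104) and *MT-RNR1* (312 ± 20.6) came after these. *MT-ND2* and *MT-ND1* were level.

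In control the FPKM of *MT-CO2* was 8486 ± 203, of *MT-CO1* 7283 ± 233, of *MT-CO3* 5098 ± 552, of *MT-ATP6* 5029 ± 214 and of *MT-ND4* 4169 ± 104. *MT-ND1* (3641 ± 61.7), *MT-ND2* (3557 ± 188), *MT-RNR2* (1286 ± 138), *MT-CYB* (723 ± 4.67) and *MT-RNR1* (390 ± 55.9) followed. *MT-CO3* and *MT-ATP6* did not differ beyond their spread in control, and neither did *MT-ND1* and *MT-ND2*. *MT-CO2* and *MT-CO1* had the first places per length in both groups, and *MT-CO3* came next in *CDYL*-sh. In control library 2 the FPKM of *MT-ATP6* (4878) was above that of *MT-CO3* (4708). *MT-ND1* and *MT-ND2* stood in the middle in both groups.

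The other 5 mRNAs were left out of this order. The length used for *MT-ND5* was 1.76 and 1.90 times that of the line through the 10 genes in *CDYL*-sh and 1.72 and 1.71 times in control. At 2656 and 2858 bases in *CDYL*-sh and 2583 and 2584 bases in control, it was longer than the annotated gene of 1812 bases. Its count may therefore include fragments from outside that gene, which was not tested. For *MT-ND6* the length used was 1.253 and 1.275 times that of the line in *CDYL*-sh and 1.19 and 1.19 times in control. For *MT-ATP8*, the shortest mRNA gene at 207 bases, the length used was 4.71 and 4.47 bases in *CDYL*-sh and 4.67 and 4.72 bases in control, and its FPKM of 15264 in *CDYL*-sh and 20171 in control is not comparable with the others. *MT-ND4L* and *MT-ND3*, also short, had 31.8 to 63.1 bases. Since the length used for *MT-ND5* and *MT-ND6* also differed between libraries, the tests above rest on counts. Counts of the short *MT-ATP8*, *MT-ND4L* and *MT-ND3* may themselves depend on the fragment size of each library, which was not tested.

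Reads can also be divided between the members and their nuclear copies, stretches of mitochondrial DNA that were inserted into nuclear chromosomes. Of 404 such genes in the table, 374 had no count and 3 reached a mean of 1 CPM. *MTCO1P12*, which matches *MT-CO1* at 98.6% of 1543 bases, had 394 and 402 CPM in *CDYL*-sh and 395 and 366 CPM in control. It held 4.21% as many counts as *MT-CO1* in control and did not pass the test (log2 fold change 0.06, edgeR adjusted p = 0.695). *MTATP6P1*, 98.5% identical to *MT-ATP6* over 681 bases, had 91.4 and 80.8 CPM in *CDYL*-sh and 117 and 112 CPM in control. Its log2 fold change of -0.41 (SE 0.11, edgeR adjusted p = 0.00882) was close to that of *MT-ATP6*. Both copies are too similar to their members for the assignment of reads to be certain. *MTND3P22*, at 77.7% identity with *MT-ND3*, had 4.57 and 5.12 CPM in *CDYL*-sh and 3.55 and 2.79 CPM in control (edgeR adjusted p = 0.0710).

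The nuclear genes that serve the members were counted in lists, to be read beside the 13.6% of all genes tested that rose and the 12.1% that fell. These shares belong to the main edgeR test at an adjusted p under 0.05. None are given for other tools, other thresholds or fits without 1 library. Of 10 genes of mitochondrial transcription, 1 rose and 1 fell, near the shares of the main test. *POLRMT*, the RNA polymerase that transcribes all members, had 252 and 251 CPM in *CDYL*-sh and 312 and 331 CPM in control (log2 fold change -0.35, SE 0.10, edgeR adjusted p = 0.0176). *TFB1M*, which methylates the small rRNA, rose by 0.65 on the log2 scale (SE 0.17, edgeR adjusted p = 0.00845). Neither call held without *CDYL*-sh library 1, and that of *POLRMT* was lost in each fit without 1 library. *TFAM*, which packs mitochondrial DNA and starts transcription, had 26.8 and 26.1 CPM in *CDYL*-sh and 28.4 and 26.6 CPM in control (edgeR adjusted p = 0.779), and *TFB2M*, which opens the promoter, had a log2 fold change of -0.20 and did not pass.

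Of 25 genes of mitochondrial RNA processing and stability, 5 rose, 2 fell and 18 did not pass. Without 1 library, 4 or 5 rose, and the number that fell was 5 without control library 2 and 1 without control library 1 or *CDYL*-sh library 2. *LRPPRC*, which keeps mitochondrial mRNAs stable and polyadenylated in a complex with *SLIRP*, had 106 and 114 CPM in *CDYL*-sh and 67.0 and 55.7 CPM in control (log2 fold change 0.84, SE 0.11, edgeR adjusted p = 4.7e-05). *SLIRP* itself had a log2 fold change of 0.02 and did not pass. *GRSF1*, an RNA-binding protein of the mitochondrial granules that is known to bind *MT-ND6* RNA, had 76.1 and 70.4 CPM in *CDYL*-sh and 123 and 119 CPM in control (log2 fold change -0.72, SE 0.10, edgeR adjusted p = 8.8e-05). *FASTK*, known to be needed for *MT-ND6* mRNA, rose by 0.56 on the log2 scale (SE 0.11, edgeR adjusted p = 0.00102), so that these genes of *MT-ND6* RNA moved in opposite directions. *PTCD3*, a protein of the small mitochondrial ribosomal subunit, rose by 0.77 on the log2 scale (edgeR adjusted p = 0.000325), and *ELAC2*, which cuts the 3′ ends of the tRNAs, had a log2 fold change of -0.40 (edgeR adjusted p = 0.00763). *TRMT10C*, part of the enzyme that cuts their 5′ ends, rose by 0.48 on the log2 scale (edgeR adjusted p = 0.0209), and so did *FASTKD2*, an RNA-binding protein of the mitochondrial granules, by 0.67 (adjusted p = 0.00339).

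Of 16 genes of mitochondrial DNA replication and nucleotide supply, 0 rose and 4 fell (12.1% of all genes tested fell), whether by edgeR, DESeq2 or limma-voom, and at an unadjusted p under 0.05 1 was higher and 5 lower. Without control library 1, 2 fell, and without *CDYL*-sh library 2, 1 fell. The 4 were *TWNK*, the helicase of the replication fork (log2 fold change -0.61), *TK2*, a thymidine kinase (-0.48), *RNASEH1*, which removes RNA primers (-0.43), and *POLG*, the replicative polymerase (-0.32). The number of mitochondrial genomes per cell was not measured.

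Most nuclear subunits of the same complexes were not called. Of 72 nuclear subunits of complexes I, III, IV and V, 5 rose and 1 fell, both below the shares of all genes tested. At an unadjusted p under 0.05, 19 were higher and 2 lower, and the share of all genes at that threshold is not given here. The median log2 fold change of the 72 was 0.17, whereas 8 of the 13 mitochondrial mRNAs fell and their median was -0.37. The number that rose depended on single libraries, at 0 without control library 1, 21 without control library 2, 19 without *CDYL*-sh library 1 and 1 without *CDYL*-sh library 2, while 1 fell in each of these fits. Within complex I, 4 of 37 nuclear subunits rose and 1 fell, with a median of 0.18. The subunits that rose were *NDUFA7*, *NDUFA1*, *NDUFA13* and *NDUFA5*, with log2 fold changes of 0.65, 0.48, 0.39 and 0.36, and the one that fell was *NDUFAB1* (-0.50, edgeR adjusted p = 0.00277), an acyl carrier protein. In complex IV, *COX5B* rose (0.50, edgeR adjusted p = 0.0143) and 10 of 11 did not pass. None of 9 nuclear subunits of complex III, 15 of complex V or 4 of complex II, which has no mitochondrial subunit, passed with edgeR's quasi-likelihood test, DESeq2 or limma-voom. With edgeR's likelihood ratio test 1 of complex III rose. Without control library 2, 3 of complex III and 1 of complex V rose, and without *CDYL*-sh library 1, 2 and 1. At an unadjusted p under 0.05, 3 of complex III, 1 of complex V and 0 of complex II were higher and 0 lower. These medians are descriptions, and the difference between nuclear and mitochondrial subunits was not tested.

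**Figure D5:**
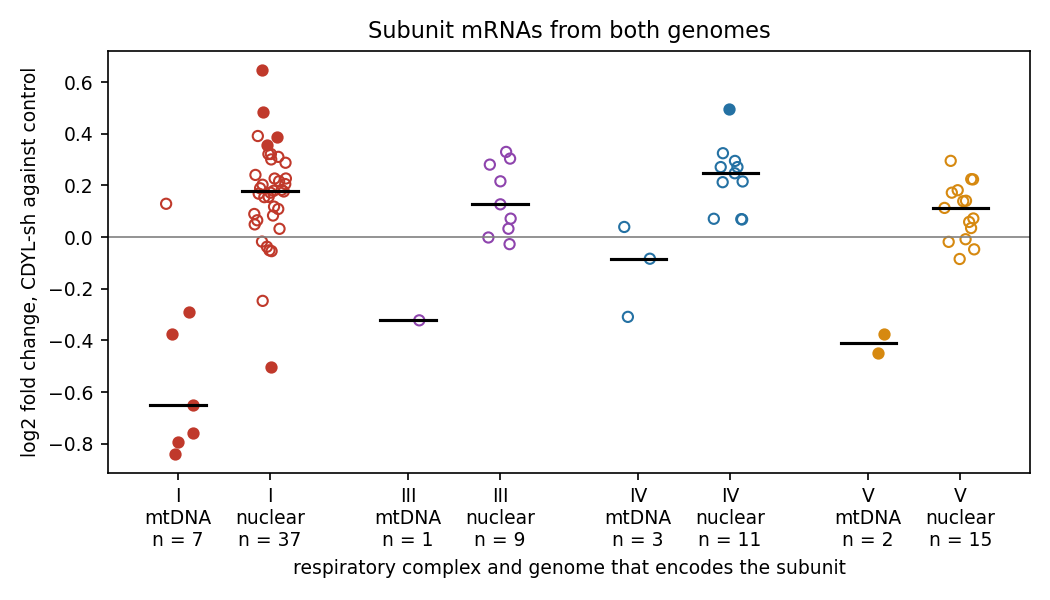
Log2 fold change of *CDYL*-sh against control (y axis) of each subunit mRNA, by respiratory complex and by the genome that encodes it, with filled points for an adjusted p under 0.05 and black bars for medians. For complex I the median is -0.65 for the 7 mitochondrial mRNAs and 0.18 for the 37 nuclear ones.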

How the data were processed

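RNA-seq was compared between 2 *CDYL*-sh and 2 control libraries of Ishikawa cells. Per the methods, paired-end TruSeq RNA libraries were aligned with TopHat to GRCh38.p10. RSEM and edgeR are further tools in the processing notes of the submitters. The deposited table holds, for each gene and library, an expected count (the estimated number of fragments, not always whole) and an FPKM, which the authors normalized for length and depth. The release of the annotation is not given in the sources used here.

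Expected counts were rounded, filtered with filterByExpr, normalized by TMM and tested with edgeR 4.0.16 (glmQLFit and glmQLFTest, no covariate, prior count 2) in R 4.3.3. Benjamini-Hochberg adjustment ran over 16158 genes, with a threshold of 0.05. Adjusted p-values are from this test where no other tool is given. The test was checked on simulated data. The scaled fit used the same genes. Totals of 22341852 to 27688447 counts and 2 libraries per group set the precision. Symbols were found for 98.1% of identifiers. Positions and sequences came from GRCh38 with GENCODE annotation. Alternatives included limma 3.58.1, DESeq2 1.42.0, other normalizations and filters, FPKM with a filter at a mean of 0.5, offsets for GC content and length, a replicate block, and fits without each library.

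All mRNAs and rRNAs of the chromosome were named, tRNAs that passed the filter, nuclear copies at a mean of at least 1 CPM, and up to 4 genes of each list by adjusted p, plus genes known to act directly on a member that passed. *TFAM*, *SLIRP*, *ELAC2*, *TRMT10C*, *FASTKD2*, *NDUFA5*, *KRT18*, *ESR1* and the 4 tRNAs with counts were named beyond this rule, after their values were seen. The members and lists were chosen with earlier results of these data known.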

Additional observations from a re-analysis of the deposited data

How the results depend on the processing

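In all 18 alternatives no member passed upward on the whole-library scale. With limma on log2 FPKM, 224 genes passed upward and 237 downward with a pseudocount of 1, and 255 and 252 with 0.1. In both, 2 mitochondrial genes passed downward, *MT-ND1* and *MT-ND5*, and the FPKM of *MT-ND5* was also lowered in *CDYL*-sh by the greater length used there. When offsets for gene length and GC content were added, the median log2 fold change of the mRNAs was -0.52, *MT-CO2* had -0.07 and *MT-ND3* -0.17, and 12 members passed downward. The mRNAs' share of summed FPKM, short genes included, differed by -1.90 percentage points, and their share of counts by -0.698. Scaled to the 6 plus-strand complex I mRNAs, where genes at an unchanged level move upward, *MT-ATP8* had 0.17 and *MT-ND6* 0.34 (edgeR adjusted p = 0.0496). Fits without 1 library called 1159 to 2078 genes upward, 923 to 1928 downward and 5 to 7 mitochondrial genes downward, both low counts of genes coming without *CDYL*-sh library 2. The median of the mRNAs then ranged between -0.50 and -0.27, *MT-CO2* between -0.0185 and 0.083, and *MT-CO3* between -0.19 and 0.0053. On the scaled measure *MT-RNR1* ranged between -0.12 and 0.22, *MT-ATP6* between -0.039 and 0.054, *MT-ND4* between -0.0243 and 0.0255 and *MT-CYB* between -0.0306 and 0.13. With the replicate number as a block (replicate block), 11 members passed downward and 0 upward. The main test did not pair the libraries by number. Same-numbered deviations from the group means correlated at 0.0677, which cannot exclude pairing, and the labels do not state what the numbers mean. The causes of these shifts were not tested. Upper quartile scaling called 7 members downward, library size alone 8, and TMM over nuclear genes 10. Of all 16158 genes tested, these fits called 1763, 1717 and 2078 downward. Such counts are not given for the replicate block or the offsets. Dixon's rule for a sample that stands apart needs more than 2 libraries in a group.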

Other observations

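Genes that build on the members' products were counted in a further list. Of 31 translation factors and assembly factors for proteins of the mitochondrial genome, 3 rose and 1 fell in *CDYL*-sh with edgeR, beside 13.6% and 12.1% of all genes tested. Without *CDYL*-sh library 2, 1 rose, and without control library 2, 0 fell. *MTIF3* and *MTIF2*, the initiation factors of mitochondrial translation, each had a log2 fold change of 0.62 (adjusted p = 0.00354 and 0.00418). *UQCC3*, an assembly factor of complex III, had 100.3 and 133 CPM in *CDYL*-sh and 74.5 and 84.6 CPM in control (0.55, adjusted p = 0.00378). *SCO2*, which delivers copper to the *MT-CO2* protein, had 1.29 and 1.81 CPM in *CDYL*-sh and 2.76 and 3.54 CPM in control, and its fall (-1.001, adjusted p = 0.0208) did not pass with DESeq2.

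Of 10 regulators of mitochondrial biogenesis, 3 rose and 3 fell, beside the same shares of all genes. With DESeq2, 2 rose, and without *CDYL*-sh library 2, 1 rose and 2 fell. *PPARGC1B*, a coactivator, had 8.32 and 8.16 CPM in *CDYL*-sh and 16.0 and 13.8 CPM in control (log2 fold change -0.85, edgeR adjusted p = 0.00104). *PPRC1*, a related coactivator, had -0.57 (adjusted p = 0.000931), and *NRF1*, a transcription factor of nuclear genes for mitochondrial proteins, had -0.60 (adjusted p = 0.00288). *GABPA*, another such factor, had 19.5 and 21.0 CPM in *CDYL*-sh and 14.1 and 10.3 CPM in control (0.73, edgeR adjusted p = 0.00297).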
